A study of Mus musculus with 4 samples.

Results

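Chromatin accessibility was examined at 10 genes of cell cycle control or senescence in cultured mouse mesenchymal stem cells (MSCs) from old and young mice. The genes were Cdkn2a, Cdkn2b, Cdkn2c, Cdkn1a, Cdkn1b, Trp53, Mdm2, Rb1, Lmnb1 and Glb1. Of 117282 peaks in the deposited ATAC-seq table (mm10), 45 overlapped 1 of these genes or the 20 kb upstream of its start in the GENCODE vM21 annotation. ATAC-seq uses a transposase that cuts open DNA, so a peak is a stretch of chromatin that was accessible. The comparison asks whether the chromatin of these genes differed with the age of the animals. The old group comprised 2 samples from mice of 18 to 22 months and the young group 2 samples from mice of 3 to 5 months, and all 4 cultures were kept at 2% oxygen in αMEM with fetal bovine serum, penicillin and streptomycin. The labels give no strain or sex and do not say whether samples came from separate animals or from pooled ones, so the p-values below measure only the spread between these samples, which may be technical. Differences in the share of cells of one kind and in accessibility per cell cannot be told apart in such bulk samples.

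Most of the genes belong to the 2 arms through which a cell can leave the cycle for good. Cdkn2a encodes p16Ink4a and, from a separate first exon and another reading frame, p19Arf. p16Ink4a, p15Ink4b (Cdkn2b) and p18Ink4c (Cdkn2c) block the cyclin D kinases, which leaves the retinoblastoma protein (Rb1) free to hold E2F factors in check. p19Arf binds Mdm2, the ubiquitin ligase that degrades p53 (Trp53), and p53 in turn activates Cdkn1a, whose product p21 inhibits the cyclin-dependent kinases together with its relative p27Kip1 (Cdkn1b). Loss of lamin B1 (Lmnb1) from the nuclear envelope and high lysosomal β-galactosidase (Glb1) are commonly used marks of senescent cells, and the accumulation of p16Ink4a with age has been described in many tissues.

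The promoters of these genes differ in the sequence that the peaks cover. The 150 bases directly upstream of 6 starts are printed 5′ to 3′ on the gene's strand from the GRCm38.p6 genome. They separate the p16Ink4a start from that of p19Arf, and the first start of Cdkn1a from its second start. Capitals mark the motifs searched on both strands. These were GGGCGG for the GC box to which Sp1 and its relatives bind, CCAAT for the box of the same name, TATAAA for the TATA box, and TGANTCA for AP-1 sites. They also included TGACGTCA for the cyclic AMP response element, CACGTG for the E-box, and for E2F sites TTTCCCGC as well as TTTGGCGC. The p53 response element was read as 2 abutting copies of its 10-base decamer with at most 1 letter off and its central C and G letters kept. The stretches lie at chr4:89282193-89282342 (p16Ink4a), chr4:89294654-89294803 (p19Arf), chr4:89311040-89311189 (Cdkn2b), chr17:29090826-29090975 and chr17:29093619-29093768 (Cdkn1a) and chr10:117710759-117710908 (Mdm2). The genes on chromosomes 4 and 10 are on the minus strand and Cdkn1a is on the plus strand.
Cdkn2a p16Ink4a start: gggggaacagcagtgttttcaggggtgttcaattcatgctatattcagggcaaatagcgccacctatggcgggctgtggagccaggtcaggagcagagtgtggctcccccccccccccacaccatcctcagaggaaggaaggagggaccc
Cdkn2a p19Arf start: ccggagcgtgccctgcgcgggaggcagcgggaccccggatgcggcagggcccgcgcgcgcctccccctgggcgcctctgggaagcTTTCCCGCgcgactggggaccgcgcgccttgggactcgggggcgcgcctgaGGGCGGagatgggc
Cdkn2b start: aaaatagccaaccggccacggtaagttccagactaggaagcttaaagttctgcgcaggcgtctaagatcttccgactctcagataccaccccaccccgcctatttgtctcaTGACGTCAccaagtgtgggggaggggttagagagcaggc
Cdkn1a first start: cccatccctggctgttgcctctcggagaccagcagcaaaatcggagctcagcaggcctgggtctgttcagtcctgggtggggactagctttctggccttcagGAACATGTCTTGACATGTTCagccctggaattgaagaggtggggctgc
Cdkn1a second start: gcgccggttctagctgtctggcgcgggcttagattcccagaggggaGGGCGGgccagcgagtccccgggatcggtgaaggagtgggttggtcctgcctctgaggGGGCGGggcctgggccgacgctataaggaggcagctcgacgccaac
Mdm2 start: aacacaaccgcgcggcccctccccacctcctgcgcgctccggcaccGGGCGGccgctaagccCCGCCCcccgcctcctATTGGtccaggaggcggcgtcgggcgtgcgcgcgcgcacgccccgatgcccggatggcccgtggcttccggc

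The stretch before the p16Ink4a start held none of these motifs, whereas that before the p19Arf start held a GC box and an E2F motif. The wider RefSeq window of the p16Ink4a start held 1 GC box and 1 CCAAT box, and that of the p19Arf start 3 GC boxes and 1 E2F motif. Over the 300 bases around each start in the RefSeq promoter table (GRCm38.p6, 250 before to 50 after), the p16Ink4a window had 12 CpG dinucleotides and a GC content of 60.3%, and the p19Arf window had 45 and 77.0%. The table held 11 windows for 8 of the 10 genes, and Rb1 and Lmnb1 were not matched. A GC box was present in 8 of the 11 windows, against 35.7% of the 32851 promoters of the table, and a CCAAT box in 5 of 11, against 37.4%. The 20-base p53 element at chr17:29090928-29090947 begins 51 bp before the RefSeq start of Cdkn1a at chr17:29090979. The printed stretch ends just before the gene's first GENCODE base at chr17:29090976. This element was in 1 of 11 windows, against 22 of all promoters or 0.0670%. Across all member peaks the same element was found at 6 positions, 2 of them in Cdkn1a peaks, 3 in Mdm2 peaks and 1 in the Cdkn2b peak. Wide peaks hold such a match more often, so each was set beside the table peaks within 10% of its width. Of those, 2.50% held one for the Cdkn1a promoter peak, 0.477% for the upstream Cdkn1a peak and 2.52% for the Cdkn2b peak. For the 3 Mdm2 peaks the shares were 3.77%, 1.34% and 0.801%. The count of 6 was not compared with all peaks. A match of letters is a description and not a measured binding site, and the cyclic AMP response element of Cdkn2b, present in 1.79% of promoters, is likewise only a match.

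The deposited values were normalised peak scores, in which 1 counted fragment or read was worth 0.307 to 0.354 depending on the sample, and 100% of the values were whole multiples of that step (tolerance 0.01). If the scale is 10000000 counts, which the sources used here do not state, the libraries held 28259470 to 32559794 counts and the peaks took 43.8% and 50.3% of them in the old samples and 57.5% and 62.9% in the young. The median peak was accordingly lower in old cells as deposited, by -0.27 on the log2 scale. The values were therefore divided by a relative log expression (RLE) factor per sample, which sets the typical peak to no change, and every value below is RLE-scaled unless it is called deposited. Mitochondrial DNA took 6.52% of the summed values in old sample 2 and 13.5% to 15.7% in the others. All 10 mesenchymal marker genes checked, such as Pdgfra and Col1a1, had a promoter peak, with a sum of 3366 to 4093 in old and 3225 to 3351 in young samples. Of 9 markers of blood, endothelial and epithelial cells 3 had one, with a sum of 55.1 to 60.1 in old and 66.0 to 70.0 in young samples. These sums also depend on the number of genes and the width of their peaks. Per kb of peak width the values overlapped, at 6.42 to 52.9 for the mesenchymal genes and 9.13 to 21.1 for those 3. The leukocyte genes Ptprc, Itgam, Adgre1 and Cd3e and the endothelial gene Cdh5 were among those without one, and the part of other cells in the results was not tested.

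Every one of the 10 genes had accessible chromatin at a start. The 45 peaks comprised 11 promoter peaks (within 1 kb of a start of a protein-coding transcript of the gene), and among the other 34, 8 that reached an exon, 13 intronic and 13 upstream peaks, with the peak over Cdkn2b counted as its promoter although it also lies in the upstream window of Cdkn2a. Rb1 had 8 peaks, Mdm2 and Lmnb1 7 each, Cdkn2a 6, Glb1 5, Cdkn1a 4, Cdkn2c and Cdkn1b 3 each, Trp53 2 and Cdkn2b 1. The promoter peaks were wide, with a median of 4300 bp against 2500 bp for all 16205 promoter peaks of the table, and their median value per kb of width was 32.7 against 27.1. Some of the small inhibitor genes lay under peaks along their whole length. Peaks covered 100% of Cdkn2b, Cdkn1a and Cdkn1b, 92.2% of Mdm2 and 88.9% of Cdkn2c, but 41.0% of Cdkn2a, 31.2% of Lmnb1, 16.9% of Trp53, 6.54% of Glb1 and 6.28% of Rb1. Per kb, the highest promoter was that of Glb1 (65.4), followed by Cdkn2c (49.99), and the lowest that of Rb1 (21.8), and the p16Ink4a peak (32.7) stood below the p19Arf peak (42.8). These levels per kb depend on how far each peak was drawn around its start.

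**Figure D1:**
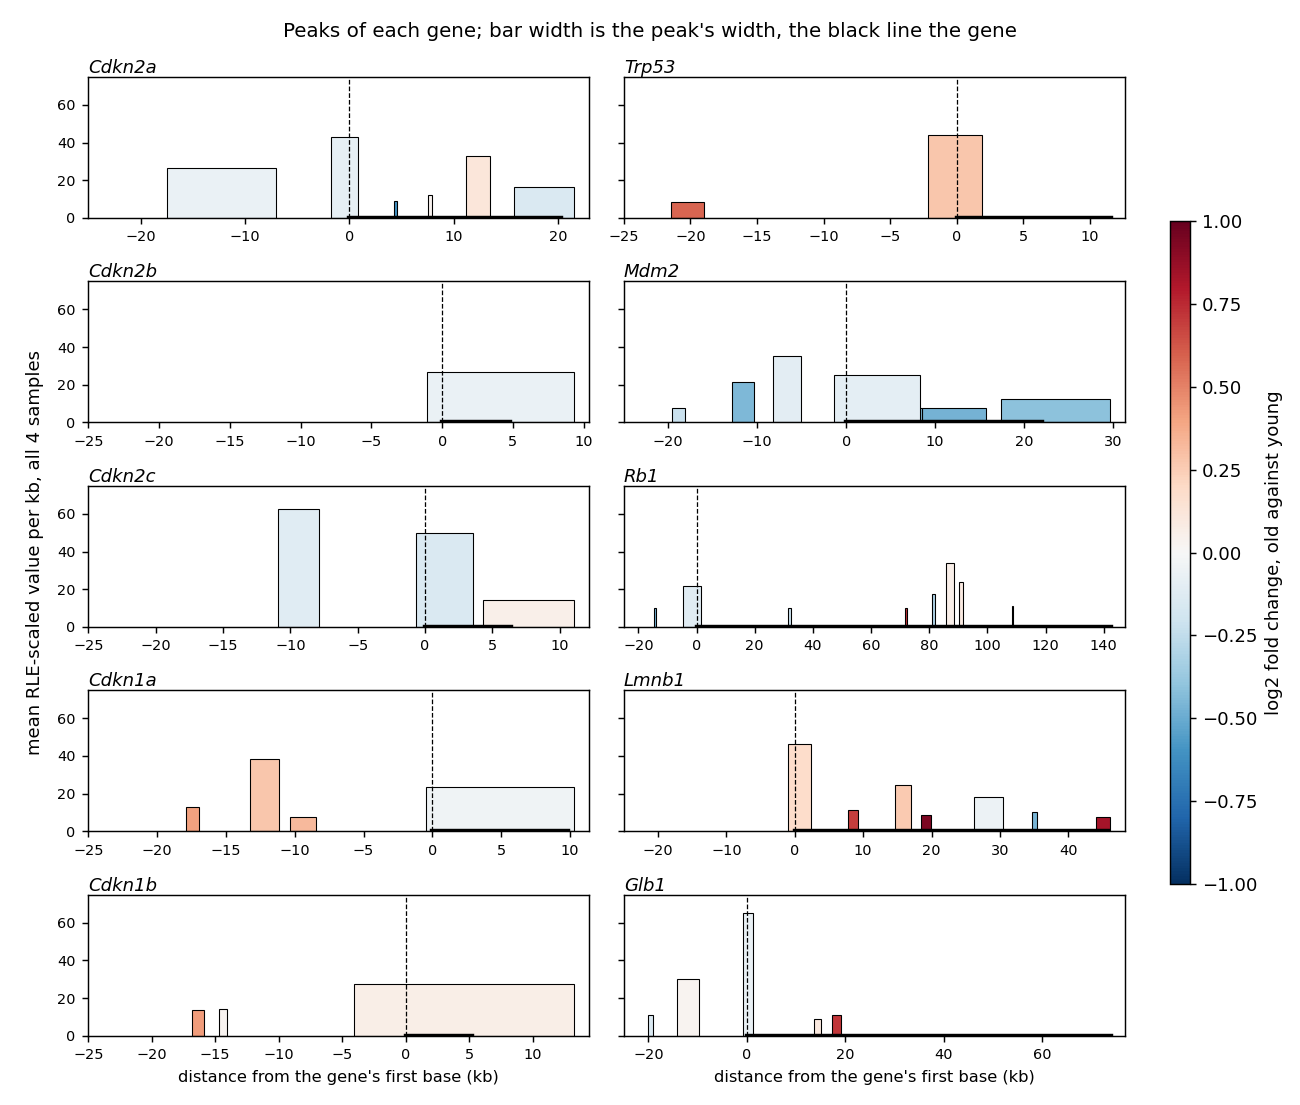
The peaks of each gene by position, with the distance from the first base of the gene in kb on the x axis (20 kb upstream to the left of the dashed line) and the mean RLE-scaled value per kb of the 4 samples as bar height. Colour gives the log2 fold change of old against young on the RLE scale; all 7 Mdm2 peaks are blue (below 0), most Lmnb1 peaks red, and the wide peaks over Cdkn2b, Cdkn1a and Cdkn1b nearly white, while as deposited the median of all peaks is -0.27 and 2 of the 5 red Lmnb1 peaks turn below 0.

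No peak of the 10 genes differed between old and young cells at the threshold used. With limma fitted over all 117282 peaks, 0 of 45 member peaks had a Benjamini-Hochberg adjusted p under 0.01, against 0.0563% of all peaks (66 peaks), and 0 of 45 had one under 0.05, against 1.12%. At an unadjusted p under 0.05 there were 7 member peaks, 2 lower and 5 higher in old, which is 7 of 45 against 16.4% of all peaks. The smallest adjusted p among the members was 0.132. Both old samples lay below both young samples in 8 peaks (17.8%, against 24.2% of all peaks), and above them in 9 (20%, against 23.2%), so that neither share stood above the background. The median log2 fold change over the 45 peaks was 0.029, beside 0.0011 over all peaks. In the deposited values both old samples were below both young in 23 member peaks (51.1%, against 43.5% of all peaks) and above in 4 (8.89%, against 7.56%), with a median of -0.26 beside -0.27 for all peaks.

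Single peaks were measured with limited precision. The half-width of the 95% interval of the log2 fold change had a median of 0.35 in the promoter peaks and of 0.60 in the other peaks, and it ranged from 0.24 to 1.21. An adjusted p above the threshold does not show that old and young cells had the same accessibility. For the 11 promoter peaks the log2 fold changes ran from -0.15 (Cdkn2c) to 0.28 (Trp53), with a median of -0.069 beside -0.028 for all promoter peaks. Of the 11, 7 were below and 4 above 0, beside 54.7% of all promoter peaks below 0. As deposited all 11 were below 0, beside 86.8% of all promoter peaks, whose median was then -0.31. The ends of their 95% intervals spanned -0.47 to 0.69. None of the 11 had an adjusted p under 0.01, against 0.037% of all promoter peaks, and the smallest was 0.506. Both old samples were below both young in 1 of the 11 (Cdkn2c), against 25.7% of all promoter peaks, and above in 1 (Cdkn1b), against 15.7%.

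**Figure D2:**
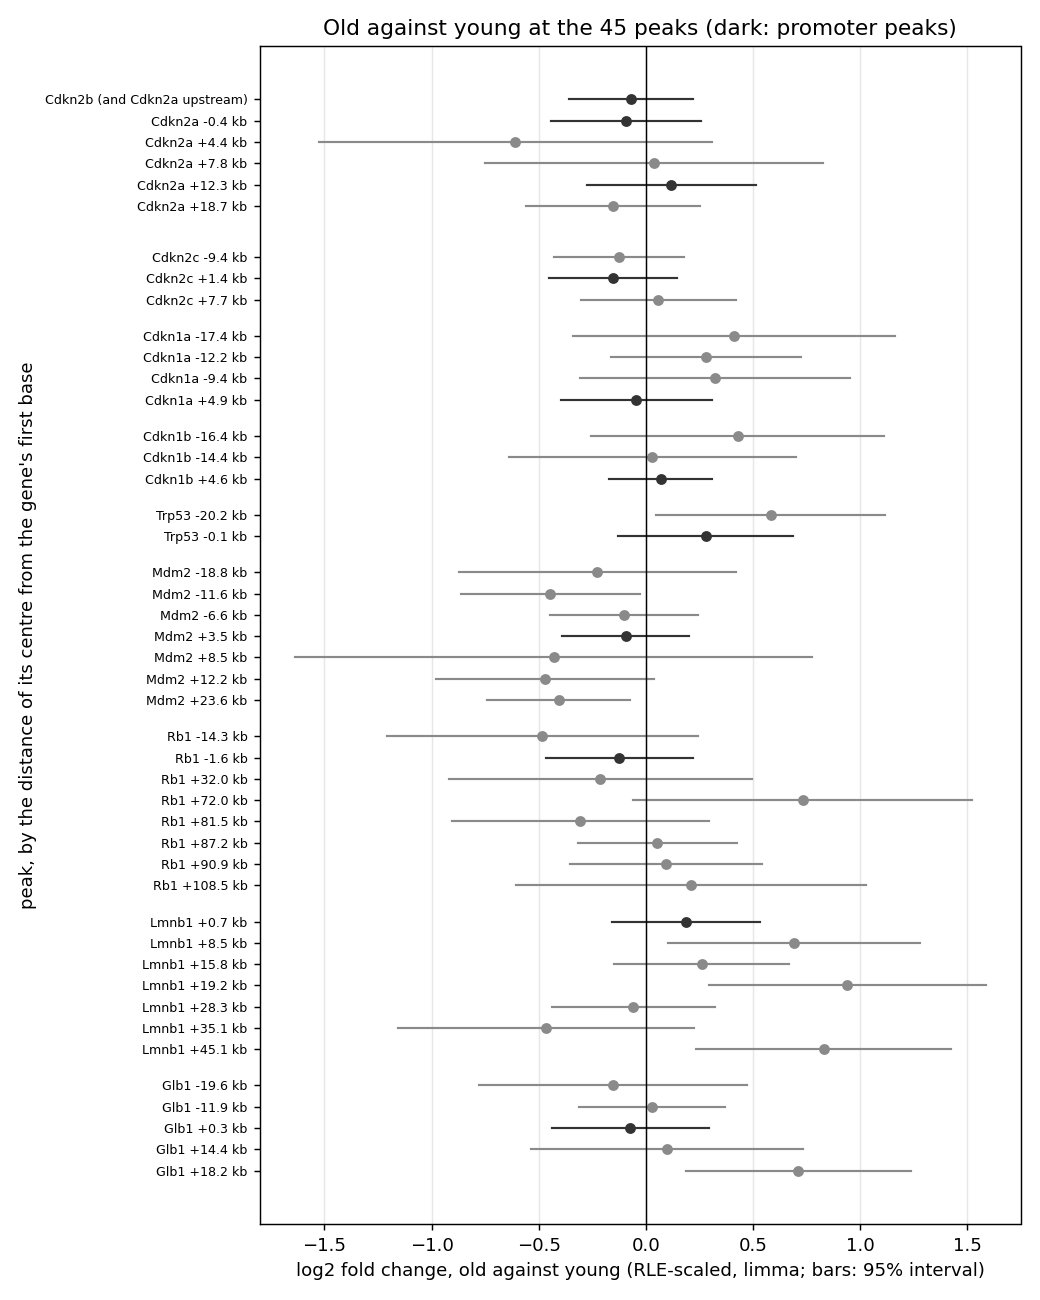
Log2 fold change of old against young on the RLE scale with its 95% interval from limma for each of the 45 peaks, labelled by gene and by the distance of the peak's centre from the gene's first base (promoter peaks dark). Intervals of 7 peaks leave out 0, 2 of Mdm2 below it and 3 of Lmnb1, 1 of Trp53 and 1 of Glb1 above it, and as deposited the typical peak of the table would stand at -0.27 on this axis.

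No peak at the Ink4 inhibitors passed the test between ages. The peak over the p16Ink4a start (chr4:89281201-89283500) measured 80.9 in old sample 1, 75.6 in old sample 2, 65.4 in young sample 1 and 79.2 in young sample 2. The young samples spanned the value of old sample 2, so the groups overlapped. Its log2 fold change was 0.12 (SE 0.19, 95% interval -0.28 to 0.51, adjusted p = 0.803 by limma), and -0.17 as deposited, where the sign turned. Around the p19Arf start (chr4:89293801-89296400) the values were 112 and 104 in the old and 122 and 108 in the young samples, a log2 fold change of -0.092 (95% interval -0.44 to 0.26). At both starts of Cdkn2a the difference between ages was smaller than the spread within 1 of the groups. Over the last exons of the gene (chr4:89273101-89278900) the values were 108, 74.4, 104 and 95.9 in the order old 1, old 2, young 1, young 2, so that the old samples differed more from each other than the group means did. An intronic peak of 300 bp at chr4:89290101-89290400 had both old values (1.72 and 2.14) below both young values (3.65 and 3.26), with a log2 fold change of -0.61 (95% interval -1.53 to 0.31) at the lowest level of the locus.

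Cdkn2b lies inside a single peak of 10.4 kb (chr4:89301701-89312100), which covers its promoter and its whole body. The values were 296 and 245 in old and 277 and 288 in young samples, and the groups overlapped (log2 fold change -0.069, 95% interval -0.36 to 0.22). At Cdkn2c, both old values of the promoter peak (chr4:109663601-109667900; 194 and 213) were below both young values (238 and 215), yet old sample 2 stood at -0.013 relative to young sample 2 on the log2 scale. The log2 fold change was -0.15 (SE 0.14, 95% interval -0.45 to 0.14, adjusted p = 0.632 by limma). The strongest other peak in the Cdkn2c window, at chr4:109675101-109678100, covers the start of Faf1, which encodes a Fas-associated factor, and had 172 and 188 in old and 200 and 192 in young samples (log2 fold change -0.12). The third peak of the window (chr4:109656101-109662900) had 107 and 93.9 in old and 93.5 and 99.1 in young samples, and its log2 fold change of 0.058 was on the other side of 0.

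For the Cip/Kip inhibitors, the accessibility of Cdkn1a differed between the 2 old samples. Its promoter peak (chr17:29090501-29101300) spans 10.8 kb, holds all 4 annotated coding starts and the p53 element printed above, and measured 199 in old sample 1 and 306 in old sample 2, against 249 and 260 in the young samples. The young samples lay between the 2 old ones. The log2 fold change was -0.044 (95% interval -0.40 to 0.31, adjusted p = 0.927 by limma) and turned positive after quantile normalisation (0.018) and with equal summed signal (0.025). A second strong peak at chr17:29077701-29079800, 11.2 kb upstream, overlaps Trp53cor1, which encodes the p53-induced long noncoding RNA lincRNA-p21. It measured 68.8 and 110 in old and 73.6 and 69.7 in young samples. Old sample 2 was again the highest of the 4, while old sample 1 was below both young samples, and the log2 fold change of 0.28 (95% interval -0.16 to 0.72) was -0.0054 as deposited. The 2 weaker upstream peaks had log2 fold changes of 0.41 and 0.32 with overlapping groups. Cdkn1b had the widest member peak and the highest value of any. Its promoter peak of 17.4 kb (chr6:134916301-134933700), which also covers the noncoding gene Lockd, measured 480 and 500 in old and 465 and 469 in young samples, so that both old samples were above both young ones by a small margin. The log2 fold change was 0.069 with the narrowest interval of all members (-0.17 to 0.31, adjusted p = 0.812 by limma), and -0.22 as deposited, where the groups overlapped. An upstream peak at chr6:134905701-134906300 had values of 7.93 to 9.47 in the 4 samples.

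**Figure D3:**
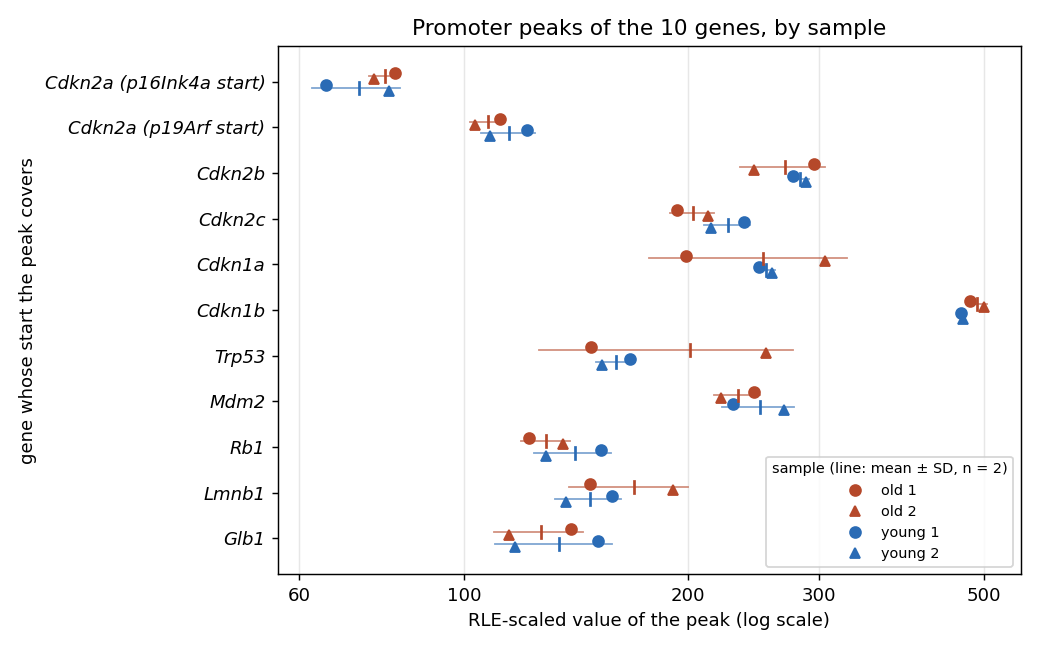
RLE-scaled values (log axis) of the 11 promoter peaks in each sample, old in red and young in blue, with circles for replicate 1 and triangles for replicate 2 and lines for the mean ± SD (n = 2 per group). Old sample 2 stands at 255 in Trp53 and 306 in Cdkn1a, above the other 3 samples, and the groups are apart in Cdkn2c and Cdkn1b alone. As deposited, all 11 peaks have a log2 fold change below 0, beside 86.8% of all promoter peaks.

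At the promoters of Trp53 and Cdkn1a the 2 old samples lay far apart. Its promoter peak (chr11:69578201-69582300) is shared with the divergent gene Wrap53, and measured 148 in old sample 1, 255 in old sample 2, 167 in young sample 1 and 153 in young sample 2. Old sample 1 was thus the lowest and old sample 2 the highest. The log2 fold change of 0.28 (SE 0.19, 95% interval -0.13 to 0.69, adjusted p = 0.506 by limma) came from old sample 2, and it was -0.0081 as deposited and -0.11 without that sample. The peaks of chromosome 11 had a median shift of 0.17 relative to the autosomes in this sample, beside 0.025 in old sample 1, and the part of this shift in the Trp53 value was not tested. At the upstream end of the window, a peak over the start of Efnb3 (chr11:69558901-69561400) had values of 23.2 and 27.8 in old and 18.2 and 15.1 in young samples. Both old samples were above both young samples there, with a log2 fold change of 0.58 (SE 0.26, adjusted p = 0.264 by limma). This peak belongs to the window by position, and Efnb3 encodes an ephrin ligand.

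Each of the 7 Mdm2 peaks had a log2 fold change below 0, from -0.094 to -0.47, and the same held in the deposited values, from -0.38 to -0.76, where the whole table had a median of -0.27. The 3 Cdkn1b and the 2 Trp53 peaks were likewise on 1 side of 0 on the RLE scale, above it. The Mdm2 peaks starting at chr10:117695001, chr10:117702201 and chr10:117702401 abut each other, so the Mdm2 peaks are not all separate regions. The direction at Mdm2 was not the same in every fit, since 1 of its peaks was above 0 without young sample 1, and without young sample 2 the promoter peak (0.019) and a peak of 200 bp (0.50) were. Its promoter peak (chr10:117702401-117712100) measured 245 and 222 in old and 230 and 269 in young samples, with overlapping groups and a log2 fold change of -0.094 (95% interval -0.39 to 0.20). Larger differences were at peaks away from the promoter, and none passed the test. The peak over the last exons (chr10:117681101-117693300) had 140 and 117 in old against 175 and 165 in young samples, a log2 fold change of -0.41 (SE 0.16, 95% interval -0.74 to -0.073, adjusted p = 0.208 by limma). That peak also overlaps the neighbouring gene Cpm. Upstream, the peak at chr10:117721101-117723600 had 47.8 and 43.0 in old against 63.4 and 60.8 in young samples (log2 fold change -0.45, SE 0.20, adjusted p = 0.275 by limma). The strongest upstream peak per kb (chr10:117715801-117719000) measured 114 and 103 in old and 114 and 119 in young samples, and its log2 fold change was -0.10. In 3 of the 7 peaks both old samples were below both young ones, against 24.2% of all peaks, and this count was not tested. One peak of 200 bp lay at or under 3 counts in at least 1 sample, and nothing can be read from it.

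The fold changes at several of these peaks depended on which old sample was left out. Without old sample 1, old sample 2 alone stands for the old group and is assumed to vary like the young samples. Effect sizes alone are therefore given here. The log2 fold change was then 0.67 at the Trp53 promoter and 0.62 at the upstream Cdkn1a peak at Trp53cor1. At the 2 Mdm2 peaks starting at chr10:117681101 and at chr10:117695001 it was -0.54 and -0.90. The calls in the same fit rose over the whole table as well, so calls in it are not particular to these genes. Without old sample 2, the Trp53 promoter and the upstream Cdkn1a peak had log2 fold changes of -0.11 and -0.057, while those of the 2 Mdm2 peaks were -0.28 and -0.041. The Cdkn1a promoter then had a log2 fold change of -0.35, beside 0.26 without old sample 1. The high values at Trp53 and at the upstream Cdkn1a peak were thus those of old sample 2, while old sample 1 lay below both young samples.

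Rb1 extends over 142 kb and carried 8 peaks. The promoter peak (chr14:73324301-73330500) measured 122 and 136 in old and 153 and 129 in young samples, a log2 fold change of -0.12 (SE 0.16, 95% interval -0.46 to 0.22, adjusted p = 0.758 by limma) with overlapping groups. The strongest peak per kb inside the gene (chr14:73237301-73239900) covers the start of Lpar6, a lysophosphatidic acid receptor gene nested within Rb1, and measured 84.3 and 94.8 in old and 87.6 and 84.6 in young samples. Of the intronic peaks, that at chr14:73253501-73254100 had the largest difference, with 9.47 and 5.79 in old against 4.64 and 3.56 in young samples. Both old values were higher, at a log2 fold change of 0.73 whose interval was wide (-0.059 to 1.53, adjusted p = 0.346 by limma). Over the gene, 4 peaks were below and 4 above 0.

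Lmnb1, which encodes lamin B1, showed the largest differences among the members, at weak peaks in its body. The promoter peak (chr18:56706801-56710200) measured 148 and 191 in old and 158 and 137 in young samples, with overlapping groups and a log2 fold change of 0.19 (95% interval -0.16 to 0.53) that was -0.10 as deposited. An intronic peak at chr18:56726301-56727800 measured 16.4 and 18.9 in old against 6.63 and 11.3 in young samples. Both old samples were above both young ones, and the log2 fold change of 0.94 (SE 0.31, 95% interval 0.29 to 1.59) had the smallest adjusted p of all members (0.132 by limma). The peak at the 3′ end of the gene (chr18:56751901-56753900) had 18.9 and 20.7 in old against 8.96 and 12.8 in young samples, a log2 fold change of 0.83 (adjusted p = 0.148 by limma). In both, old samples were also above young samples as deposited, by 0.67 and 0.56. The strongest intronic peak per kb (chr18:56722501-56724800) measured 63.7 and 60.7 in old against 51.4 and 51.9 in young samples, a log2 fold change of 0.26 that was -0.022 as deposited. On the RLE scale, 4 of the 7 Lmnb1 peaks had both old samples above both young ones, against 23.2% of all peaks. In 1 they were below, against 24.2% of all peaks. Counts over so few peaks are a description and were not tested. The median of chromosome 18 was -0.056 relative to the autosomes.

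Glb1, the source of senescence-associated β-galactosidase activity, had the highest promoter per kb of the 10 genes. The peak over its start (chr9:114400401-114402400), which also covers the start of Tmppe, measured 139 and 115 in old and 151 and 117 in young samples. The spread within each group exceeded the difference between them (log2 fold change -0.072, 95% interval -0.44 to 0.29). Upstream, the peak over the start of Crtap (chr9:114386901-114391400) had a log2 fold change of 0.029 that was -0.26 as deposited. In the first part of the gene, an intronic peak at chr9:114418301-114420300 measured 26.2 and 28.7 in old against 15.3 and 17.5 in young samples. Both old samples were above both young ones, also as deposited (0.44), with a log2 fold change of 0.71 (SE 0.25, 95% interval 0.19 to 1.24, adjusted p = 0.158 by limma).

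When the values of all peaks of a gene were summed, 4 of the 10 genes had groups that did not overlap, 2 with both old samples below both young and 2 with both above. Over the same window of all 18118 protein-coding genes with a peak, these shares were 25.4% and 15.6%, so that 2 of 10 in each direction is near the background. Mdm2 had sums of 620 and 530 in old and 659 and 695 in young samples, a ratio of 0.850, and the old samples stayed below the young under each of the 4 scalings. Cdkn2c (ratio 0.933) was also lower in both old samples on the RLE scale, though the groups overlapped with equal summed signal. Lmnb1 (ratio 1.16) and Cdkn1b (1.06) were higher in both old samples, while their log2 ratios as deposited were -0.052 and -0.20 with overlapping groups. For Trp53 the ratio was 1.28, with old sample 2 at 1.60 and old sample 1 at 0.970 of the young mean. With 2 samples against 2, the exact permutation test (two-sided) cannot give less than p = 0.33, so none of these sums can pass a threshold of 0.05.

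**Figure D4:**
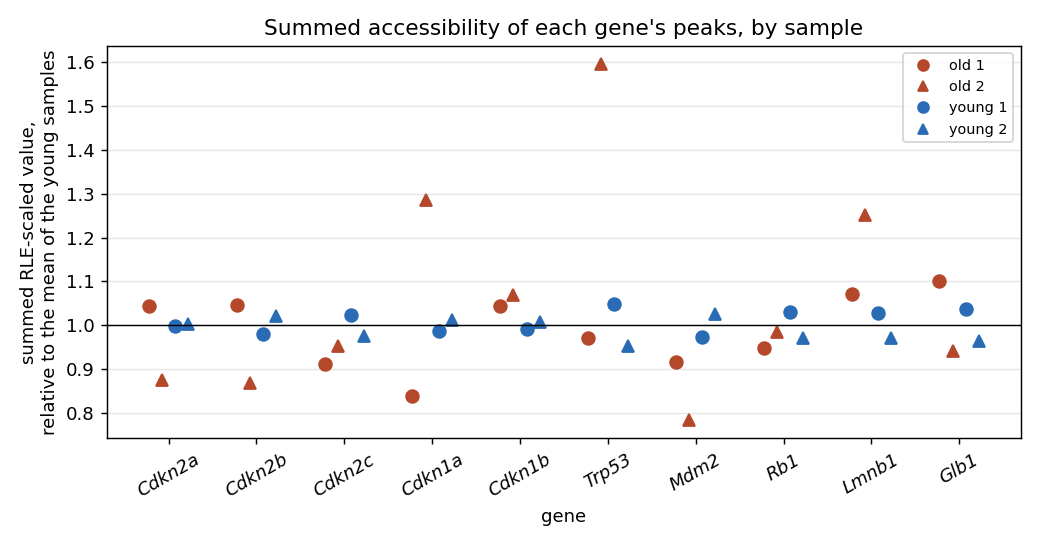
Summed RLE-scaled values of each gene's peaks in each sample, divided by the mean of the 2 young samples (the line at 1). Old sample 2 reaches 1.60 at Trp53 and 1.29 at Cdkn1a and falls to 0.783 at Mdm2, whereas old sample 1 is at 0.970, 0.838 and 0.916; as deposited, the sums of all genes but Trp53 have a log2 ratio of old to young below 0.

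At the upstream edge of the windows, the next peak outside was not called for any gene. Peaks farther out and those past the downstream edge were not examined. The nearest peaks beyond the 20 kb limit had log2 fold changes from -0.067 to 0.50 and adjusted p-values from 0.347 to 0.946 by limma. The peak next to Mdm2, 143 bp beyond its window at chr10:117730901-117732100, had a log2 fold change of 0.32, whereas the farthest peak inside (chr10:117728901-117730300) had -0.23.

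Other genes of the same pathways gave the same count of calls. The list comprised 67 genes, among them the remaining Cdk inhibitors, D and E cyclins and their kinases, E2F factors, p53 targets, DNA damage kinases, Polycomb and Ets regulators of the Ink4 locus and secreted factors of senescent cells, and 66 had a promoter peak, all but Trp63. Of the 71 promoter peaks, 0 had an adjusted p under 0.01 by limma, against 0.037% of all promoter peaks. At an adjusted p under 0.05 there was 1, lower in old, against 59 of all 16205 promoter peaks. Both old samples were below both young in 21 peaks (29.6%) and above in 9 (12.7%), beside the 25.7% and 15.7% of all promoter peaks, and the median log2 fold change was -0.065, or -0.35 as deposited. Among the lower peaks whose groups did not overlap, the largest differences were at a second start of Tfdp2, the E2F partner (-0.61, at values of 3.05 to 5.94), at the p53 target Pmaip1 (-0.45, from 62.0 and 35.7 in old to 64.7 in both young samples) and at the cytokine gene Il6 (-0.43, from 102 and 125 to 153 and 154). Among the higher ones they were at the chromatin protein gene Hmga1 (0.36), the retinoblastoma relative Rbl1 (0.35) and the cyclin D1 gene Ccnd1 (0.32). None of these 6 had an adjusted p under 0.05.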

How the data were processed

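ATAC-seq was performed on 4 cultures of mouse mesenchymal stem cells, 2 old and 2 young. The authors deposited 1 table with a normalised score for each sample and peak, and named mm10, Bowtie2 and Picard in their processing notes. The scores are labelled RPKM, yet they were whole multiples of 1 step per sample and so not divided by peak width. Beyond that label, peak calling, counting and normalisation are not given in the sources used here. All 117282 peaks lay inside the chromosomes of GRCm38.p6. The members and the gene lists were chosen with earlier results of these data known. Deposited scores were divided by RLE factors (0.813 and 1.01 in old, 1.07 and 1.15 in young samples), log2(score + 1) was fitted over all peaks with limma 3.58.1 in R 4.3.3 (trended and robust empirical Bayes, no covariates), and p-values were adjusted by the Benjamini-Hochberg method over all 117282 peaks, with a threshold of 0.01. Fold changes are on the log2(score + 1) scale, which understates changes of weak peaks, and no filter on low values was applied, so that all 45 member peaks were tested. The fit was tested on simulated data. Named in the text are each gene's promoter peaks, any called peak, the strongest other peak per kb, and, where groups do not overlap and the mean reaches 5, the other peak that differed most; of the pathway list, promoter peaks under 0.05 and the 3 largest in each direction. The peaks at Mdm2 last exons, chr10:117695001, the 3′ end of Lmnb1 and the intron of Cdkn2a were named after their values were seen. The recovered counts of the promoter peaks ran from 188 to 1641 per sample. Alternatives were the deposited scale, quantile normalisation, equal summed signal, 0.1 or 5 in place of the pseudocount of 1, leaving out weak peaks, plain moderation, limma-voom on recovered counts, correction for GC content and width, a replicate block, narrower windows and leaving out each sample. Sequences came from RefSeq tables and the genome of GRCm38.p6, and gene names from GENCODE vM21. The single values of 1 gene of the pathway list and of 1 marker gene are not reported here.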

Additional observations from a re-analysis of the deposited data

How the results depend on the processing

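No member peak had an adjusted p under 0.01 in either direction under any alternative but 1. Without old sample 1, 2 member peaks were called lower and 2 higher, and over the 4 fits that each leave out 1 sample these counts ranged from 0 to 2 in each direction; the lone sample of a group was assumed to vary like the others. Over all peaks, the counts of 36 lower and 30 higher became 1333 and 52 as deposited, 53 and 42 after quantile normalisation, 7 and 15 with equal summed signal, 11 and 13 with a pseudocount of 0.1, 54 and 38 with one of 5, 7 and 8 with the filter on weak peaks, 0 and 0 with plain moderation, 99 and 50 by limma-voom, and 109 and 76 with the correction for GC content and width. Leaving out a sample gave 6388 and 3925 (old 1), 1229 and 461 (old 2), 2 and 8 (young 1) and 0 and 12 (young 2). The samples with the same replicate number did not deviate together (r = -0.099 on the RLE scale), so the numbers were not taken as pairs. The replicate block gave 0 member peaks lower and 0 higher, with a smallest adjusted p of 0.0890, and 907 and 362 calls over all peaks.

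The median log2 fold change of the member peaks, 0.029, became -0.26 as deposited, 0.092 with equal summed signal, -0.0077 with the filter on weak peaks, -0.037 with the correction for GC content and width, and -0.0028 with 5 kb upstream or the gene body alone, and ranged from -0.036 (without old sample 1) to 0.011 when samples were left out. For the promoter peaks, it became -0.36 as deposited, -0.0069 after quantile normalisation and -0.00043 with equal summed signal, and was -0.069 with 500 bp or 2 kb around a start. Of the 45 member peaks, both old samples were below both young in 8, and in 23 as deposited. They were above in 9, and in 4 as deposited. Over all peaks, the shares below were 24.2% on the RLE scale and 43.5% as deposited, and those above 23.2% and 7.56%. With 5 kb upstream or the gene body alone, the count below was 4. These windows leave out the upstream peaks, which held 4 of the 8, so the set itself was smaller.

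As deposited, 9 of 24 named peaks changed sign, namely the p16Ink4a start (-0.17), chr6:134905701 (-0.23) and the promoter (-0.22) of Cdkn1b, Crtap (-0.26), Trp53 (-0.0081), Lpar6 (-0.23), Trp53cor1 (-0.0054), and the promoter (-0.10) and the peak chr18:56722501 (-0.022) of Lmnb1. The correction for GC content and width turned Crtap (-0.045), and quantile normalisation and equal summed signal turned the Cdkn1a promoter (0.018 and 0.025). When samples were left out, log2 fold changes ranged across 0 at the last exons of Cdkn2a (-0.42 to 0.11), the p16Ink4a start (-0.019 to 0.26), Cdkn2b (-0.20 to 0.064), chr6:134905701 of Cdkn1b (-0.084 to 0.14), Crtap (-0.093 to 0.15), the promoters of Glb1 (-0.25 to 0.11), Mdm2 (-0.21 to 0.019), Trp53 (-0.11 to 0.67) and Cdkn1a (-0.35 to 0.26), Lpar6 (-0.029 to 0.14) and Trp53cor1 (-0.057 to 0.62). The cause of these changes was not tested. Summed values moved by more than the spread within groups for 8 genes as deposited, 3 with equal summed signal and 1 after quantile normalisation. Depth limits weak peaks most, with 1 member peak at 3 counts or fewer in a sample and 2 under 10. The filter on weak peaks left 40 of 45 member peaks.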
